A study of Mus musculus with 2 samples.

Results

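Folr2-positive Gata6-low macrophages are described here: peritoneal macrophages that carry transcripts of the folate receptor gene Folr2 and no detected transcript of 4 genes of large peritoneal macrophages, Gata6 among them. They were chosen cell by cell from their UMIs, the counted transcript molecules. A cell had C1qa, C1qb and C1qc, the macrophage complement genes, at 20 or more UMIs per 10000 in sum. It had at least 2 UMIs of Folr2 and 0 UMIs of Gata6, Garnl3, Tgfb2 and Ltbp1 together. Cells with 5 or more UMIs of Chil3, 10 or more of Retnla, over 2 of Cd79a and Cd3e together, or 5 or more of either a mitosis sum (6 genes) or an S-phase sum (5 genes) were left out. The choice found 661 of 16000 Cd36-/- cells and 613 of 14733 fl/fl cells, 1274 of 30733 in all. They are called Folr2 macrophages below.

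All mice were 10 to 14 weeks old and had received 1 mg of zymosan in the peritoneal cavity 3 days before its cells were collected. Zymosan is made of yeast cell walls and sets off a peritonitis without live microbes. The Cd36-/- mice carried floxed Cd36 and LysM-Cre, a Cre recombinase made from the lysozyme 2 (Lyz2) locus in macrophages and other myeloid cells. The fl/fl mice carried floxed Cd36, and their label names no Cre, so carrying Cre and losing Cd36 cannot be told apart. Each group was 1 library from a pool of 4 replicates with no map from cells to animals. No difference between the libraries given here therefore has a replicate check or a test. Total peritoneal cells were loaded, and the 10x Genomics protocol read the 3′ ends of transcripts.

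Body cavities and many organs hold a class of resident macrophages marked by Folr2, Lyve1 and Timd4, which is set apart from monocyte-derived macrophages with Ccr2 and MHC class II. Folr2 encodes folate receptor beta, a surface protein anchored in the membrane by a lipid tail, and it binds folate. In the peritoneal cavity, large peritoneal macrophages depend on the transcription factor Gata6, while small, Gata6-low macrophages are largely fed by blood monocytes, and inflammation brings more of these in.

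Before filtering there were 16543 Cd36-/- barcodes with 116600732 UMIs and 15537 fl/fl barcodes with 117238057 UMIs, none under 500 UMIs. After removal of barcodes with under 200 genes or over 10% mitochondrial UMIs, the median cell had 6821.5 UMIs in Cd36-/- and 7136 UMIs in fl/fl. The Folr2 macrophages had medians of 8367 and 9291 UMIs and of 2237 and 2399 genes per cell, and their mitochondrial share had medians of 2.13% and 2.46%. The fl/fl Folr2 macrophages were thus the deeper ones. Of the filtered barcodes, 333 occurred in both libraries, and 3 of these were Folr2 macrophages in both. Scrublet, a doublet caller, marked 14 (2.12%) Cd36-/- and 3 (0.489%) fl/fl Folr2 macrophages as doublets, against 6.11% and 4.94% of all cells, and they were kept. Bounds given in brackets below are exact 95% bounds for counting error, and they hold nothing of the variation among animals.

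The C1q limit kept 10174 Cd36-/- and 7778 fl/fl cells. Of these, 3518 and 2839 had no UMI of the Gata6 sum, and 872 and 854 of those had the 2 Folr2 UMIs. The Folr2 step was thus the narrowest, and the remaining limits brought the numbers to 661 and 613. Just inside the Folr2 limit stood 252 Cd36-/- and 227 fl/fl cells with 2 UMIs. Just outside stood 509 Cd36-/- and 367 fl/fl cells with 1 UMI that met every other condition. Levels are given as CPM, a gene's share of the UMIs summed over a group of cells, on the usual counts-per-1000000 scale. Cbr2 had 81.4 CPM in the Cd36-/- cells with 2 Folr2 UMIs and 71.8 CPM in those with 1. In fl/fl cells the same 2 levels were 88.3 and 56.4 CPM. Cells on both sides of the limit thus carried Cbr2 at like levels in Cd36-/-, and at a higher level inside it in fl/fl.

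Folr2 lies on chromosome 7 (101839988 to 101857194, minus strand, GRCm38, the build the submitters name as mm10). RefSeq lists 2 starts for it on that strand. The 250 bases before each start are shown because Folr2 defines these cells and Maf, a transcription factor whose core half-site is TGCTGA, is one of their given markers. Capitals mark TGCTGA on either strand, which occurs in 16.1% of the 32851 windows of this length in the same RefSeq table (GRCm38.p6).
Folr2, upstream start, chr7:101857191-101857440, minus strand: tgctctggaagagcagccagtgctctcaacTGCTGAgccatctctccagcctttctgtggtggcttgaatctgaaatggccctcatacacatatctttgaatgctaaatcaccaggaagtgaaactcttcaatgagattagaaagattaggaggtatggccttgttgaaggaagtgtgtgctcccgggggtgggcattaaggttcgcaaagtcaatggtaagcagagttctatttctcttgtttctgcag
Folr2, downstream start, chr7:101845332-101845581, minus strand: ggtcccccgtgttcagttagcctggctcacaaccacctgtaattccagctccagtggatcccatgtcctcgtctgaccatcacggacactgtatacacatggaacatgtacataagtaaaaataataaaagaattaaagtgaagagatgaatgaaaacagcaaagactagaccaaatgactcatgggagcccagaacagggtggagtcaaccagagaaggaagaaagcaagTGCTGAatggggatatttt
Both windows hold 1 match, beginning 220 bases before the upstream start and 19 bases before the downstream start. The window of Cbr2 is shown next, since it led the genes ranked as higher in these cells than in the macrophage groups described below. Capitals mark GAGGAA, the core bound by the macrophage factor PU.1, which occurs in 23.3% of windows.
Cbr2, chr11:120732022-120732271, minus strand: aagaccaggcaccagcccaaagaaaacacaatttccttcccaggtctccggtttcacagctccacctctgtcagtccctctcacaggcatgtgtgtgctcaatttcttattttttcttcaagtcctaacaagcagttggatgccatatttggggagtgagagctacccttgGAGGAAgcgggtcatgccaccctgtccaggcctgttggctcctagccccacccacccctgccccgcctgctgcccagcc
The match begins 79 bases before the RefSeq start of Cbr2. GENCODE M21 places the upstream end of the gene at 120732114, so part of this window lies within the gene in that annotation. A match is a description of these letters and no evidence of binding.

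All 5 markers given for these cells were found in them. Folr2 also chose the cells, so the presence of the markers is no independent check of the name. Folr2 had 428 CPM in the Cd36-/- Folr2 macrophages and 427 CPM in the fl/fl ones, a level set by the choice of cells. Cbr2, a carbonyl reductase of resident macrophages, had 112 CPM in Cd36-/- and 135 CPM in fl/fl cells. F13a1, the A subunit of coagulation factor XIII, had 242 CPM in Cd36-/- and 360 CPM in fl/fl cells. Both genes were higher here than in the Folr2-negative and Gata6-type macrophages described below. Aif1, the actin-bundling protein IBA1 of macrophages, had 356 CPM in Cd36-/- and 262 CPM in fl/fl cells. Maf, which shapes the resident macrophage state, had 248 CPM in Cd36-/- and 339 CPM in fl/fl cells. The pan-macrophage genes were present too. Csf1r, the receptor for colony-stimulating factor 1, had 657 and 631 CPM, and Adgre1, which encodes F4/80, had 204 CPM in each library. At the Folr2 limit, Aif1 had 318 CPM in Cd36-/- cells with 2 Folr2 UMIs and 319 CPM in those with 1, and Maf 231 and 216 CPM. In fl/fl cells the same levels were 247 and 218 CPM for Aif1 and 318 and 302 CPM for Maf.

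Markers of most other cells were low. The 7 B cell markers summed to 408 CPM in Cd36-/- and 469 CPM in fl/fl Folr2 macrophages, against 22582 and 20813 CPM in B cells. The 6 T cell markers summed to 24.7 and 14.1 CPM, the 5 natural killer cell markers to 25.8 and 15.1 CPM, and the 7 neutrophil markers to 65.3 and 79.2 CPM, with Ly6g and Mmp8 at 0 in both. The 5 conventional dendritic cell markers summed to 6.62 and 5.33 CPM with Clec9a at 0, and the 5 mast cell markers to 16.0 and 13.6 CPM. Eosinophil, mesothelial and fibroblast markers summed to under 2 CPM in each library, with Prg2, Epx, Ccr3, Msln, Upk3b, Lrrn4 and Pdgfra at 0. Monocyte and large peritoneal macrophage markers were higher. The 6 monocyte markers, Ccr2 among them, summed to 817 CPM in Cd36-/- and 872 CPM in fl/fl Folr2 macrophages, against 2591 and 2168 CPM in B cells, where Plac8 made up most of the sum. An estimate from the B and T cell markers puts free RNA of the whole library at up to 10.6% of the UMIs of Cd36-/- and 8.34% of those of fl/fl Folr2 macrophages. The 10 large peritoneal macrophage markers, 4 of which the rule holds at 0, summed to 892 and 839 CPM, against 5530 and 5738 CPM in Gata6-type macrophages and 273 and 262 CPM in B cells. Most of the sum was Icam2, at 477 and 493 CPM, and Prg4, at 279 and 217 CPM, while Alox15 had 60.9 and 43.1 CPM, against 40.3 and 36.8 CPM in B cells.

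Against Gata6-type macrophages, the Folr2 macrophages had more of Cbr2, Mrc1, F13a1, Ccr2 and the MHC class II genes and far less of the large peritoneal macrophage genes. The Gata6-type group met the same limits but had at least 2 UMIs of the Gata6 sum and held 4059 Cd36-/- and 2910 fl/fl cells. Since the rule chose the cells, these levels are a description with no test. Of 2206 genes with at least 50 CPM in 1 of the 2 groups, 52 were at least 2-fold higher and 71 at least 2-fold lower in the Folr2 macrophages in both libraries. Cbr2 led, at 112 CPM in Folr2 and 14.7 CPM in Gata6-type macrophages of the Cd36-/- library, and at 135 and 13.4 CPM in those of the fl/fl library. Its log2 ratios were 2.92 (2.75 to 3.10) and 3.34 (3.15 to 3.52). Mrc1, the mannose receptor CD206, followed with log2 ratios of 2.85 in Cd36-/- and 2.79 in fl/fl cells. F13a1 was higher by 2.38 and 2.74 on the same scale, and Ccr2, the chemokine receptor by which monocytes leave the marrow, by 1.93 and 2.21. Their lists did not follow Ccr2 and Mrc1. Of 11 monocyte-derived macrophage genes, 5 were higher and 6 lower in both libraries, with medians of -0.19 and -0.14. Of 10 scavenger receptor genes, 3 were higher and 6 lower in both, with medians of -0.27 and -0.21.

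The genes of antigen presentation were higher together. Cd74, the invariant chain of MHC class II, had 7018 and 5616 CPM in Cd36-/- and fl/fl Folr2 macrophages, against 2086 and 1596 CPM in Gata6-type macrophages. All 7 MHC class II genes compared were higher in both libraries, with medians of 1.53 and 1.70, beside medians of 0.12 and 0.17 over all genes. Slamf9, Aif1, Cd300c2, Plekho1, Gstp1 and Fxyd2 were the other genes at the top of the ranking, each higher by a log2 ratio of 1.75 or more in both libraries. B cells had 15359 and 13573 CPM of Cd74, and the part of their free RNA in these levels was not tested.

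At the low end stood genes known from the resident Gata6 state. Cxcl13, the chemokine that draws B-1 cells to the cavity, had 23.9 and 12.9 CPM in Cd36-/- and fl/fl Folr2 macrophages, against 1061 and 998 CPM in Gata6-type macrophages. In B cells it had 24.5 and 16.3 CPM, as high as in the Folr2 macrophages. The list of large peritoneal macrophage genes outside the rule was lower for all 12 members compared, with medians of -2.80 and -2.90. Alox15, which makes lipid mediators of resolution, was lower by log2 ratios of -4.39 and -4.79, the adhesion molecule gene Selp by -3.64 and -3.78, and coagulation factor V (F5) by -2.92 and -3.12. Cald1, Wnt2, Ptgis, Fabp4, Aspa, C4b, Prg4 and Marco completed the 12 lowest genes. Timd4, the phosphatidylserine receptor TIM-4, was also lower than in Gata6-type macrophages, at 175 and 126 CPM against 444 and 358 CPM.

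**Figure D1:**
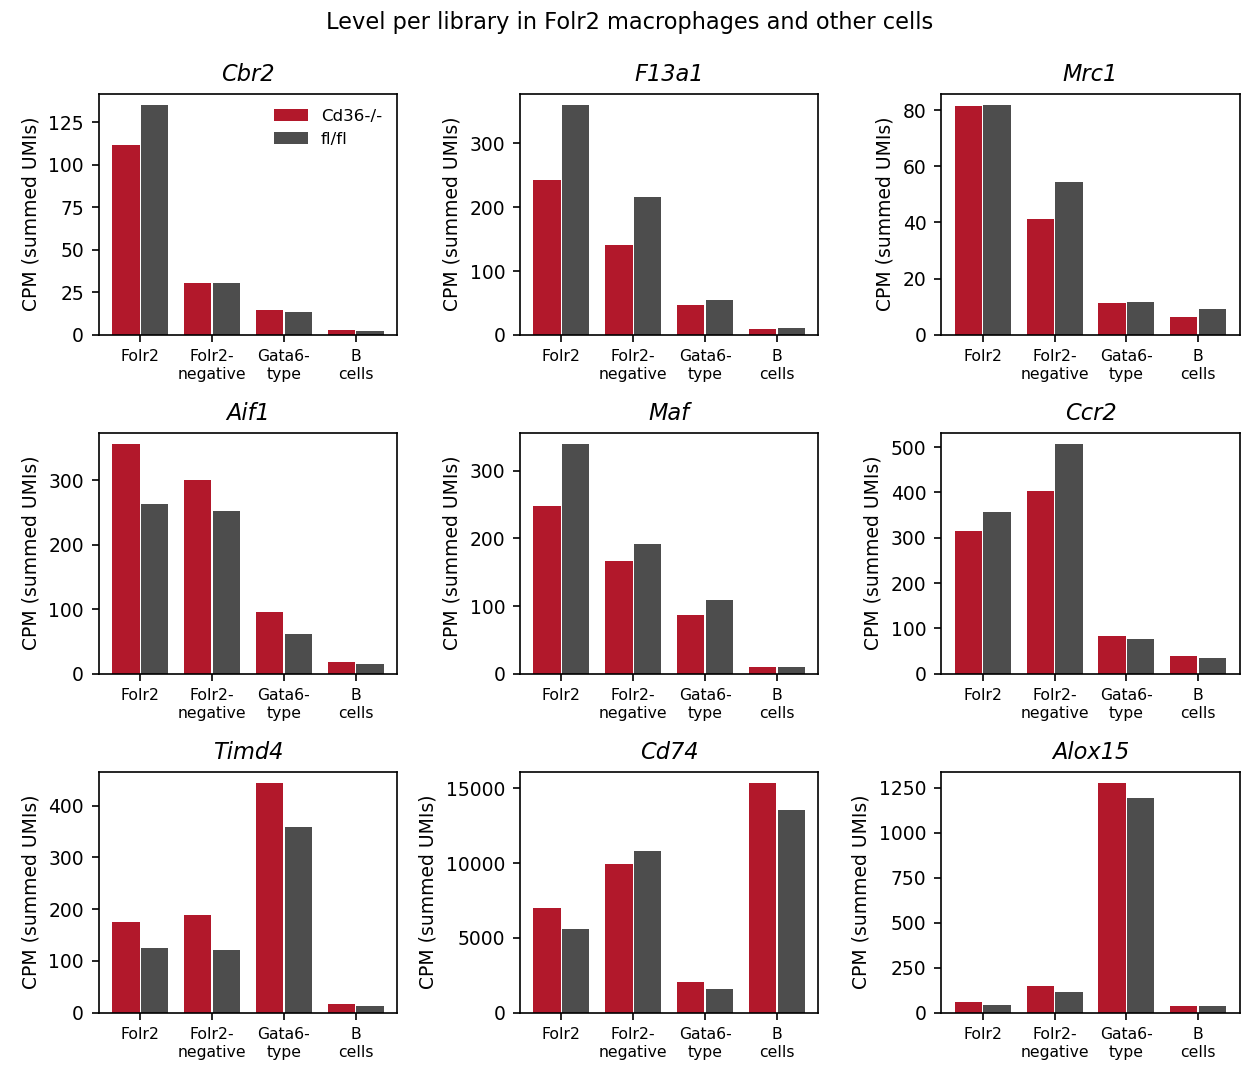
Level of 9 genes (CPM of summed UMIs, linear axis from 0) in Folr2 macrophages, Folr2-negative Gata6-low macrophages, Gata6-type macrophages and B cells. Red bars are the Cd36-/- library and grey bars the fl/fl library, 1 library each. Cbr2, F13a1 and Mrc1 were highest in Folr2 macrophages, Ccr2 and Cd74 were higher in Folr2-negative than in Folr2 macrophages, and Timd4 and Alox15 were highest in Gata6-type macrophages.

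Against Folr2-negative Gata6-low macrophages, which met the same limits with 0 Folr2 UMIs, differences were few. This group held 1585 Cd36-/- and 1131 fl/fl cells with lower median depths of 5999 and 6910 UMIs. Its 10th percentiles were 1033 and 905 UMIs, against 5059 and 5003 UMIs in Folr2 macrophages. A shallow cell can miss a Folr2 transcript, and also those of the Gata6 sum, so some Gata6-type cells may be in this group. Their part in its levels was not tested. Of 2161 genes compared, 4 were at least 2-fold higher and 3 at least 2-fold lower in both libraries. Cbr2 again led, at 112 CPM in Folr2 and 30.7 CPM in Folr2-negative cells of the Cd36-/- library, and at 135 and 30.5 CPM in those of the fl/fl library. Stab1, the scavenger receptor stabilin-1, followed with log2 ratios of 1.05 and 1.33. Fcna, the secreted lectin ficolin A, had 1.02 and 1.28, and Fxyd2 had 1.00 and 1.17. These 4 genes are the ones past 2-fold.

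Genes listed for the class of resident macrophages with Timd4, Lyve1 and Folr2 (called TLF here) leaned the same way: 11 of 13 compared were higher in both libraries and none lower in both, with medians of 0.58 and 0.63 beside 0.02 and 0.04 over all genes. MHC class II genes were lower for all 8 members compared, with medians of -0.43 in Cd36-/- and -0.90 in fl/fl cells. Cd74, for example, had 9932 and 10807 CPM in the Folr2-negative cells. The Folr2 macrophages thus stood between the Gata6-type and the Folr2-negative macrophages in these genes in both libraries. Ccr2 had 315 and 358 CPM, against 404 and 507 CPM in Folr2-negative macrophages, and the 12 monocyte-derived macrophage genes compared had medians of -0.21 and -0.23, with 2 higher and 7 lower in both libraries. Alox15, Fabp4 and Slpi, an antiprotease of epithelia and macrophages, headed the lowest genes, with log2 ratios of -1.27 and -1.39, -0.90 and -0.88, and -0.79 and -0.81. Pf4, Wfdc17, Lgals1, Fcgrt, Serpinb6a, Tmem37, Gstp1 and F13a1 made up the rest of the 12 highest genes. Clec12a, Id2, H2-Eb1, H2-Ab1, H2-Aa, Prg4, Fabp5 and Lmo4 joined Cd74 in the rest of the 12 lowest. A Chil3-positive group under the same limits held 25 and 32 cells and was not ranked.

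Other folate genes gave little signal. Of 18 folate and one-carbon genes, 2 reached 20 CPM. Ggh, which trims folate chains in the lysosome, had 71.2 CPM in Cd36-/- and 61.2 CPM in fl/fl cells, and Atic, a folate-dependent enzyme of purine synthesis, had 25.8 and 33.3 CPM. Folr1, the gene of folate receptor alpha, had 0.348 and 0.172 CPM, which is 2 UMIs and 1 UMI. Slc19a1 and Slc46a1, the genes of the folate transporters, had 3.31 and 3.44 CPM and 1.74 and 3.09 CPM.

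Not every Folr2 macrophage carried every marker, and the classical companions Lyve1 and Cd163 were nearly absent. A UMI of Cbr2 was found in 47.8% of Cd36-/- (43.9 to 51.7) and 48.6% of fl/fl Folr2 macrophages, against 1.13% and 1.21% of B cells, whose median depths were 4338 and 4862 UMIs. After each cell was thinned to 2000 UMIs, which left out 3 Folr2 macrophages in each library, the shares were 19.6% and 20.5%, against 0.505% and 0.584% of B cells. F13a1 was found in 36.6% and 48.7% of thinned cells and Maf in 38.3% and 51.1%. Lyve1, the hyaluronan receptor of vessel-lining macrophages, was found in 2.87% and 4.40% of cells before thinning, against 0.0355% and 0.142% of B cells. Cd163, the haemoglobin scavenger receptor, was found in 3.63% and 4.89%, against 0.319% and 0.355% of B cells. Both shares were above those of B cells yet under 5%, so a UMI of either was found in few of the cells at this depth.

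Timd4 and Ccr2 were both present in many of these cells. Timd4 was found in 54.3% of Cd36-/- and 46.8% of fl/fl Folr2 macrophages, and in 24.5% and 17.9% after thinning, against 3.33% and 2.44% of thinned B cells. Ccr2 was found in 72.0% and 71.9%, and in 39.4% and 41.5% after thinning, against 4.47% and 4.11% of thinned B cells. Among thinned Cd36-/- cells with a Timd4 UMI, 35.4% had one of Ccr2 (28.0 to 43.3), against 40.6% of those without (36.3 to 45.1). Among thinned fl/fl cells the shares were 37.6% (28.5 to 47.4) and 42.3% (37.9 to 46.8). The share was lower among cells with Timd4 in both libraries, with intervals that overlap. Whether Timd4 and Ccr2 mark separate cells was not tested. Cbr2 and F13a1 were found together more often. Of thinned cells with Cbr2, 44.2% (35.5 to 53.2) of Cd36-/- and 64.0% (54.9 to 72.4) of fl/fl cells had F13a1, against 34.8% (30.7 to 39.0) and 44.7% (40.3 to 49.3) of cells without Cbr2. These intervals overlap in the Cd36-/- library and do not in the fl/fl library.

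Cells with more Folr2 UMIs had more Cbr2 and less Saa3. In the Cd36-/- library, 38.1% of the cells had 2 Folr2 UMIs, 37.5% had 3 to 4, 21.5% had 5 to 9 and 2.87% (19 cells) had 10 or more. In the fl/fl library the shares were 37.0%, 34.1%, 22.8% and 6.04% (37 cells). The upper class was thus larger in the fl/fl library, whose cells were deeper. Over the 4 classes Cbr2 had 81.4, 93.8, 171 and 224 CPM in Cd36-/- cells and 88.3, 118, 172 and 313 CPM in fl/fl cells. F13a1 had 221, 226, 285 and 347 CPM in Cd36-/- cells and 303, 359, 395 and 519 CPM in fl/fl cells. Saa3, the acute phase protein serum amyloid A3, had 15137, 12820, 11155 and 9523 CPM in Cd36-/- cells and 9562, 9306, 7336 and 6857 CPM in fl/fl cells. Thinning evened the depth of the levels only, since the classes rest on unthinned Folr2 UMIs, so it is no check of depth. In thinned levels the orders of Cbr2 and Saa3 were the same in both libraries, and those of F13a1 and Fcna were not. Thinned levels have no interval here, and those of the highest class come from the same 19 and 37 cells. For F13a1, thinned levels were 237, 268, 345 and 237 CPM in Cd36-/- cells and 377, 359, 404 and 541 CPM in fl/fl cells. For Fcna, they were 269, 248, 394 and 605 CPM in Cd36-/- cells and 404, 402, 364 and 581 CPM in fl/fl cells. Timd4 and Ccr2 showed no common order, with Timd4 at 172 and 192 CPM in the lowest and highest class of Cd36-/- cells and at 125 and 114 CPM in those of fl/fl cells. Median depth differed over the classes, at 7984 to 9160 UMIs in Cd36-/- and 8812 to 10800 UMIs in fl/fl cells.

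**Figure D2:**
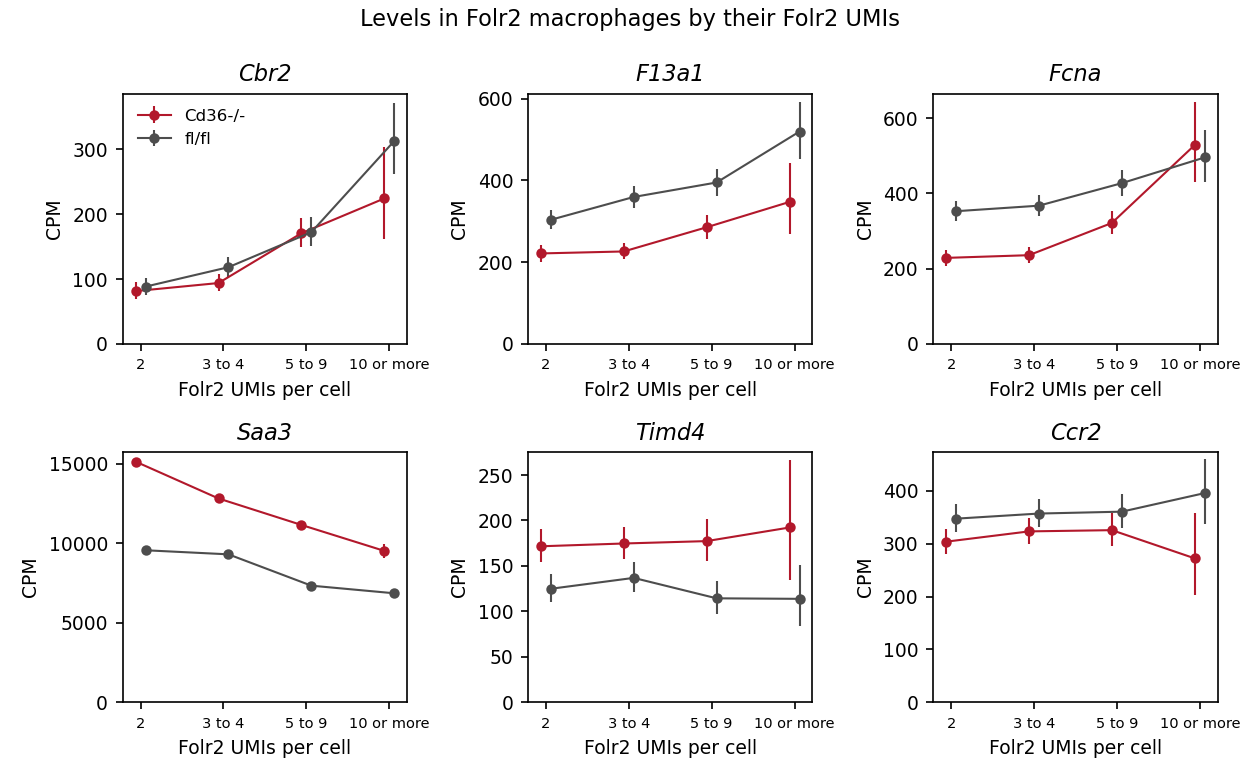
Level of 6 genes (CPM, linear axis from 0) in Folr2 macrophages with 2, 3 to 4, 5 to 9 and 10 or more Folr2 UMIs per cell, for the Cd36-/- library (red) and the fl/fl library (grey). Bars are exact 95% counting intervals. Cbr2, F13a1 and Fcna were highest and Saa3 lowest in the class of 10 or more UMIs in both libraries. This class holds 19 Cd36-/- and 37 fl/fl cells.

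The highest ratios of variance to mean from cell to cell lay in other genes than the markers. At 2000 UMIs per cell, the ratio of variance to mean had a median of 1.03 in each library over 2060 genes, about the value that random counting gives. It was over 2 in both libraries for 27 genes. Saa3 had 26.3 in Cd36-/- and 22.9 in fl/fl cells, Cd74 16.9 and 18.0, and Slpi 12.3 and 13.4. Actb, the gene of beta-actin, came next with 10.9 and 7.85, and then Apoe with 7.93 and 7.57. H2-Aa had 7.11 and 8.22, Lyz1 12.4 and 6.84, and Wfdc17 7.65 and 6.65, ahead of the class II genes H2-Eb1 and H2-Ab1. The genes with the highest ratios were thus of several kinds, the cytoskeletal Actb among them. The ratio was not adjusted for a gene's level, so its order does not rank unevenness apart from level. Saa3 had means of 25.9 and 17.3 UMIs per thinned cell in Cd36-/- and fl/fl, and Fcna 0.60 and 0.81. B cells held Saa3 at 2782 and 2039 CPM and Slpi at 821 and 680 CPM, and the part of free RNA in the spread was not tested.

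The share of Folr2 macrophages was close between the libraries. They made up 4.13% of Cd36-/- cells (3.83 to 4.45) and 4.16% of fl/fl cells (3.84 to 4.50), a difference of -0.0295 percentage points (-0.481 to 0.421). Among the cells past the C1q limit they made up 6.50% (6.03 to 6.99) and 7.88% (7.29 to 8.50), a difference of -1.38 points (-2.16 to -0.614). The Cd36-/- library held more cells past the C1q limit, and shares say nothing of cell numbers per cavity. With 1 Folr2 UMI allowed, the shares were 7.31% and 6.65% of all cells, so the sign of the difference depends on where the Folr2 limit is set.

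The next comparison sets Cd36-/- against fl/fl Folr2 macrophages. Cd36, a scavenger receptor that takes up fatty acids and modified lipoproteins, had 216 CPM in Cd36-/- (204 to 228) and 278 CPM in fl/fl Folr2 macrophages (264 to 292), a log2 ratio of -0.37 (-0.47 to -0.26). B cells had 34.2 and 35.2 CPM, so the level in Cd36-/- Folr2 macrophages was above the level in B cells. The labels do not say which exons are floxed, and 3′ reads can come from outside them, so this level does not check the deletion. In Gata6-type macrophages Cd36 had 175 and 270 CPM, a log2 ratio of -0.63. Lyz2, whose locus carries the Cre, had 17745 CPM in Cd36-/- and 29166 CPM in fl/fl Folr2 macrophages, a log2 ratio of -0.72. Its neighbour Lyz1 went the other way, at 2279 against 508 CPM and a log2 ratio of 2.17 (2.11 to 2.22). Both lysozyme genes lie side by side on chromosome 10, and 16.9% of the 50-base words at the 3′ end of Lyz2 also occur in Lyz1, so reads could be split between them. In B cells the same ratios were -0.63 and 2.50, so both differences were also found in a cell type that should lack these genes, that of Lyz2 at a smaller size. Alternatives, free RNA subtraction among them, gave Folr2 macrophage ratios of -0.73 to -0.67 for Lyz2 and 1.88 to 2.33 for Lyz1. The part of free RNA in the B cell levels was not tested.

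Folr2 macrophages of the 2 libraries were alike in most genes. In all, 4678 genes reached 20 CPM in Cd36-/- or fl/fl cells, and 98.1% were within 1.5-fold. There were 30 genes (0.641%) at least 1.5-fold higher and 59 (1.26%) at least 1.5-fold lower in Cd36-/- cells, of which 6 (0.128%) and 8 (0.171%) were past 2-fold. These folds describe size only. The median log2 ratio over all genes was -0.02, with 2152 genes higher and 2526 lower in Cd36-/- cells. Both counts moved with the minimum level: with at least 50 CPM in both libraries they were 11 and 9 of 2084 genes, and with at least 5 CPM in 1 library 181 and 258 of 8233.

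Next to Lyz1, the genes with the highest ratios were Acod1, Apoe and genes of the interferon response. Apoe, the lipoprotein component that carries cholesterol out of macrophages, had 3857 against 1685 CPM, a log2 ratio of 1.195 (1.16 to 1.23). The ratio was 0.69 in Folr2-negative and 0.66 in Gata6-type macrophages and 0.94 in B cells, where the level was 457 and 238 CPM. Irf1, the transcription factor of the interferon-gamma response, had 61.3 against 28.2 CPM, a log2 ratio of 1.12 (0.85 to 1.40). Gbp2b, an interferon-induced GTPase, had 23.3 against 9.45 CPM, a log2 ratio of 1.30 (0.84 to 1.78). Acod1, which makes the antibacterial metabolite itaconate, had 31.5 against 12.03 CPM, a log2 ratio of 1.39 (0.98 to 1.81). Ifi47, another interferon-induced GTPase, and Psmb9, an immunoproteasome subunit, had ratios of 0.81 and 0.56. In B cells Acod1 had 1.26 against 0.532 CPM, a fold of 2.38 from 19 and 14 UMIs, while Irf1 had a ratio of 0.37 and Gbp2b one of -0.36. In Gata6-type macrophages Acod1, Irf1 and Gbp2b had ratios of 1.19, 0.56 and 0.12.

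The window before the start of Gbp2b is shown because this interferon-induced gene was among the most different. Capitals mark a pair of GAAA repeats parted by any 2 bases, the core bound by interferon regulatory factors, searched on both strands and found here on the minus strand, so that it reads TTTC on the printed one, 137 bases before the start. It occurs in 2.98% of windows.
Gbp2b, chr3:142594597-142594846, plus strand: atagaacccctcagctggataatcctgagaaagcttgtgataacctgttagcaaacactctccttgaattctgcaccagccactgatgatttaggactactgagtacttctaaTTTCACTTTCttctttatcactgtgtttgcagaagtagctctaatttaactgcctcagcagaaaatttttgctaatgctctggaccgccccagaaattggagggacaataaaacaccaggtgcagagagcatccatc
The match shows letters only and says nothing of binding.

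The other genes at the top were of mixed function. Saa3 had 13143 against 8737 CPM, a log2 ratio of 0.59, and Slpi 3692 against 2468 CPM, a ratio of 0.58. Their ratios were 0.88 and 0.56 in Folr2-negative macrophages and 0.45 and 0.27 in B cells. Marcks, an actin and membrane linker, had 0.63, against 0.19 in Folr2-negative macrophages. Cxcl13 had a ratio of 0.89, at 23.9 and 12.9 CPM, the level found in B cells. Gstp1, Grcc10 and Tpm3-rs7 had ratios of 0.78, 0.86 and 0.60, and in B cells 0.71, 0.55 and 0.98. These 3 share 37.7% to 48.1% of their 3′ words with other genes or pseudogenes, so their counts are uncertain.

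Glucocorticoid-induced genes led the lower genes. Fkbp5, a chaperone of the glucocorticoid receptor and a classic target of it, had 6.44 CPM in Cd36-/- (4.53 to 8.88) and 35.2 CPM in fl/fl cells (30.6 to 40.4), a log2 ratio of -2.45. Per1, a clock gene that glucocorticoids also induce, had 8.01 against 33.5 CPM, a ratio of -2.07. Klf9, a transcription factor with the same property, had 34.5 against 90.2 CPM, a ratio of -1.39 (-1.63 to -1.15). Of 11 listed glucocorticoid-induced genes compared, 8 were lower and 3 higher, with a median of -0.22, beside 2526 of all 4678 genes lower. Of these 11, 4 were past 1.5-fold lower, against 1.26% of all genes. The fourth was Tsc22d3, which encodes GILZ, at 160 against 245 CPM, and it was chosen for mention after its values were seen. Dusp1, Mt1 and Cebpd, also in the list, were the 3 higher ones. The 3 leading genes had ratios of -2.33, -2.04 and -1.37 in Folr2-negative macrophages and -1.08, -1.90 and -0.81 in Gata6-type macrophages. B cells had -0.59, -1.16 and -0.75, so these 3 genes were lower in every group of cells compared here.

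Several genes tied to the Folr2 state itself were lower in Cd36-/- cells. F13a1 had a log2 ratio of -0.57 (-0.67 to -0.48), Fcna -0.55 (-0.65 to -0.46), Maf -0.45 (-0.55 to -0.35) and Cbr2 -0.28 (-0.43 to -0.12). Aif1 and Timd4 went the other way, with 0.44 (0.34 to 0.54) and 0.48 (0.34 to 0.62). In Gata6-type macrophages F13a1, Fcna and Maf had ratios of -0.21, -0.24 and -0.33, and Aif1 and Timd4 0.65 and 0.31. All had the same direction there, while Cbr2 had 0.14. F13a1 and Fcna were also lower in Cd36-/- Folr2-negative macrophages, at 141 against 216 CPM and 129 against 159 CPM. In Folr2 macrophages Mrc1 had 81.5 against 81.8 CPM and Pf4, platelet factor 4, 977 against 979 CPM. Over the TLF list, 5 of 14 genes compared were higher and 9 lower, with a median of -0.06, none past 1.5-fold, so the list did not move as a whole. Thbd, the gene of the anticoagulant receptor thrombomodulin, was lower at 12.5 against 30.4 CPM, a ratio of -1.28 (-1.69 to -0.88). With it, 8 of 9 coagulation and fibrinolysis genes were lower, with a median of -0.21, beside 2526 of all 4678 genes lower. Fcgr2b, the inhibitory Fc receptor, had 123 against 203 CPM, a ratio of -0.72, while the activating receptor genes Fcgr1, Fcgr3 and Fcgr4 and their chain Fcer1g had 0.44, 0.22, 0.29 and 0.21. Tppp3, which stabilises microtubules, had 97.7 against 192 CPM, a ratio of -0.97 in Folr2 macrophages, of -0.60 in Folr2-negative macrophages, of -0.10 in Gata6-type macrophages and of -0.52 in B cells. Sgms1, which makes sphingomyelin, had a ratio of -1.02. In Gata6-type macrophages Thbd, Fcgr2b and Sgms1 had -0.82, -0.49 and -0.55. In B cells they had -1.14, -0.19 and -0.37, so these genes were lower in both groups as well. Tmcc3, Jade2, Rnf169, Dusp23 and Slc9a3r2 had ratios of -0.93 to -0.74.

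**Figure D3:**
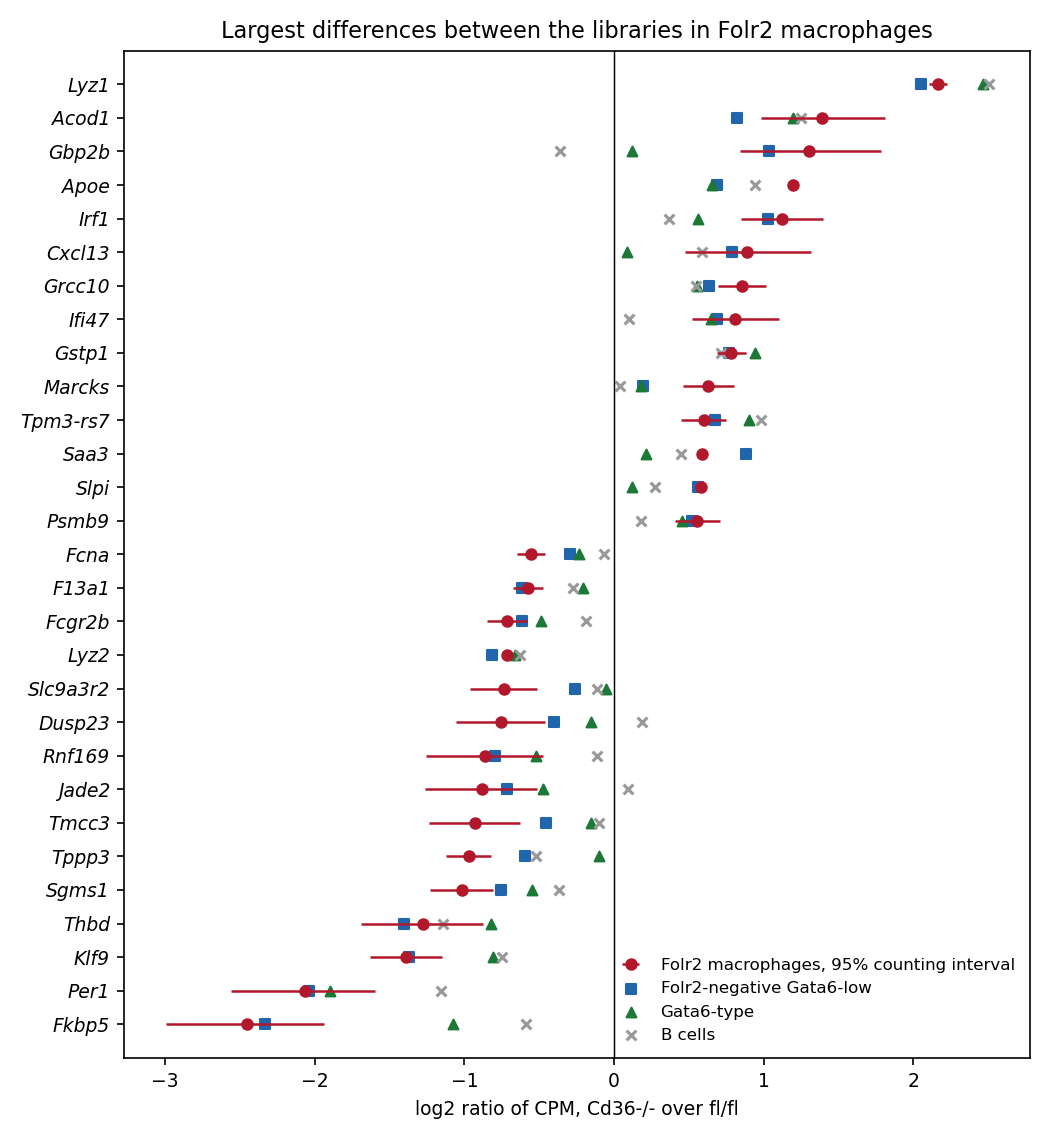
Log2 ratio of CPM, Cd36-/- over fl/fl, for genes ranked highest and lowest in Folr2 macrophages (red points with exact 95% counting intervals), with the ratio of the same gene in Folr2-negative Gata6-low macrophages (blue squares), Gata6-type macrophages (green triangles) and B cells (grey crosses). Lyz1 and Gstp1 had like ratios in all 4 groups of cells, while Gbp2b and Cxcl13 had ratios near 0 in Gata6-type macrophages.

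Endoplasmic reticulum chaperones were lower together, by small amounts. Of 15 unfolded protein response genes compared, 14 were lower and 1 higher, with a median of -0.32, none past 1.5-fold. Over all 4678 genes compared, 2526 were lower. Hspa5, the chaperone BiP, had 182 CPM in Cd36-/- and 258 CPM in fl/fl cells, a log2 ratio of -0.50 (-0.61 to -0.38). Hsp90b1, Calr and Pdia6, which fold and retain secretory proteins, had -0.43, -0.39 and -0.38. In Gata6-type macrophages Hspa5, Hsp90b1, Calr and Pdia6 had -0.13, -0.19, -0.05 and -0.12. In B cells they had -0.38, -0.30, -0.20 and -0.27, so they were lower there as well. The median of the list stayed between -0.41 and -0.30 under all alternatives run.

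Interferon-gamma response and MHC class II genes were higher together. Of 9 interferon-gamma response genes, 8 were higher and 1 lower, with a median of 0.36, and Irf1 and Gbp2b were past 1.5-fold. Over all genes compared, 46.0% were higher and 0.641% were past 1.5-fold higher. Gbp2 had 136 against 99.3 CPM, a ratio of 0.45, beside 0.53 in Gata6-type macrophages and -0.05 in B cells. All 8 MHC class II genes compared were higher, with a median of 0.24 and none past 1.5-fold. H2-DMb1, which helps to load peptide, had 209 against 155 CPM, a ratio of 0.43 (0.31 to 0.56), though 27.4% of its 3′ words also occur in H2-DMb2. Type I interferon response genes of the Folr2 macrophages showed no such lean, with 4 higher and 5 lower of 9 and a median of -0.03. That median ran from -0.04 to 0.19 under the alternatives, the latter with the limits applied to cells thinned to 5000 UMIs. Ifi27l2a and Irf7, which belong to that list, had ratios of -0.36 and -0.46, while Ifi47 and Zbp1, also in it, had 0.81 and 0.35.

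Chemokine, cholesterol and fatty acid lists were mixed. Of 8 chemokine genes, 5 were higher and 3 lower, with a median of 0.24. Ccl5, a chemokine for T cells, had 141 against 65.5 CPM, but B cells had 212 and 119 CPM and T cells 5993 and 5406 CPM; it was named after its values were seen. Cxcl2, which draws neutrophils, had 42.3 against 26.6 CPM, Cxcl16 77.5 against 57.1 CPM and Ccl6 5190 against 5635 CPM. Subtracting an estimate of free RNA brought the chemokine median to -0.01. Of 8 cholesterol efflux genes, 5 were higher and 3 lower, with a median of 0.17. Next to Apoe, the sterol pump gene Abca1 had 75.2 against 61.3 CPM and Mylip 27.2 against 20.8 CPM. Of 7 fatty acid handling genes, 4 were higher and 3 lower, with a median of 0.15. Fabp5, a fatty acid carrier, had 274 against 208 CPM, and Plin2, which coats lipid droplets, 278 against 339 CPM.

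Genes for the uptake of dead cells were lower but for Timd4. Of 8 compared, 7 were lower and 1 higher, with a median of -0.17, beside 2526 of all 4678 genes lower. Mertk, the receptor kinase that binds bridging molecules on dead cells, had 52.1 CPM in Cd36-/- and 78.9 CPM in fl/fl cells, a ratio of -0.60 (-0.81 to -0.39). Axl, a kinase of the same family, had -0.46 and Stab1 -0.47. In Gata6-type macrophages Mertk, Axl, Stab1 and Timd4 had ratios of -0.32, -0.67, -0.28 and 0.31. These genes thus went the same way there. In Folr2 macrophages the scavenger receptor genes as a list were even, with 5 higher and 6 lower and a median of -0.01.

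Most other lists stayed near the median of all genes compared, 2152 of which were higher and 2526 lower. Nuclear oxidative phosphorylation genes were higher for 23 of 29, with a median of 0.09, and Sdhb, a subunit of succinate dehydrogenase, had 0.40. Lysosome genes were even, with 10 higher and 10 lower. Iron genes had 5 higher and 5 lower, complement genes 4 and 5, alternative activation genes 1 and 4, and myeloid transcription factors 5 and 9, with medians of 0.02, -0.02, -0.01 and -0.05. Among the transcription factors, Irf8 had 89.3 against 61.0 CPM, a ratio of 0.55, and Cebpa had -0.36. Monocyte-derived macrophage genes were lower for 9 of 12, with a median of -0.11. Fc receptor genes had 4 higher and 2 lower with a median of 0.21, and inflammatory cytokine and NF-kappaB targets 4 and 3 with a median of 0.07. Cell cycle genes outside the rule had 3 and 2 of 5 with a median of 0.21, and genes raised by handling of cells 3 and 5 of 8 with a median of -0.13. Large peritoneal macrophage genes outside the rule had 6 higher and 5 lower with a median of 0.20, and subtracting free RNA brought it to -0.03. In that list, Alox15 had a ratio of 0.50 before and -0.72 after the subtraction, so its direction in Folr2 macrophages depends on the treatment of free RNA. Of 4 growth and repair factors compared, 1 was higher and 3 lower, with a median of -0.07.

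**Figure D4:**
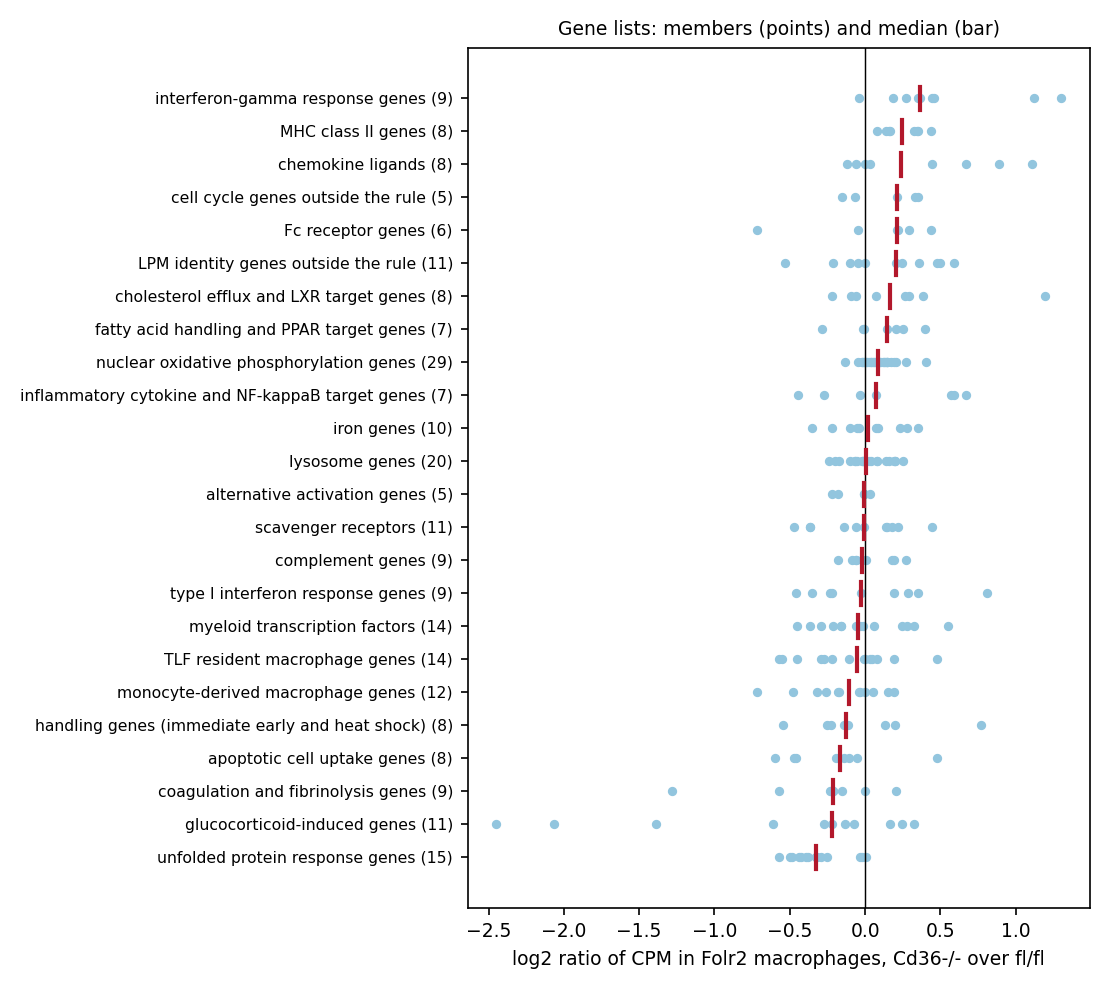
Log2 ratio of CPM in Folr2 macrophages, Cd36-/- over fl/fl, for gene lists with at least 5 genes compared (number in brackets; LPM stands for large peritoneal macrophage). Points are genes and red bars the list medians, which ran from -0.32 for unfolded protein response genes to 0.36 for interferon-gamma response genes, while the median of all 4678 genes was -0.02.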

How the data were processed

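The authors deposited 2 matrices, 1 per library, of whole-number UMI counts that had not been normalized; the file headers give 3.0.0 as the version of the software. The submitters' processing notes name Cell Ranger and mm10, and the annotation release is not given in the sources used here. Both libraries used the 10x 3′ v2 kit, per the labels' protocols.

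Cells, Folr2 macrophages and the groups set beside them were chosen by the limits given in the report. B cells, which show what free RNA can give, had at least 3 Cd79a UMIs, no Cd3e UMI and a C1q sum under 20 per 10000. No cell type annotation was used, so all names rest on these limits. The members and the gene lists were chosen with earlier results of these data known, so neither is independent support for any pattern.

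UMIs were summed over the cells of a group and library and scaled to CPM. Bounds at 95% are exact: from the Poisson distribution for a level, from the binomial distribution given the summed UMIs for a ratio, and by Clopper-Pearson for a share. Those of a difference between shares combine both shares' bounds. UMIs of pooled animals show counting error only. Genes of the rule were left out of the ratios. The genes named are Cd36 and Lyz2, the genes of the rule and the markers, the 15 highest and 15 lowest genes by the interval bound nearest to 0, the 12 highest and 12 lowest against each like group, and up to 4 genes of each of 26 lists. Not ranked were unnamed gene models, sex-linked, haemoglobin, mitochondrial, ribosomal, T cell receptor and immunoglobulin genes, and any gene with under 0.2 of the level seen in B cells, T cells or neutrophils in both libraries. Members of lists, marker sums and folate genes outside this rule were named after their values were seen. Some genes that meet the rule are not reported here.

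Thinning drew each cell down to a fixed number of UMIs without replacement. Free RNA was estimated by scaling the whole-library profile to the B and T cell marker UMIs of Folr2 macrophages. Shared 3′ sequence is the share of 50-base words in the last 500 bases of GENCODE M21 transcripts that occur in another gene. Promoter windows are RefSeq's (GRCm38.p6). Positions are those of GENCODE M21. The ratio and thinning steps were tested on simulated counts. Python 3.11.15, NumPy 2.4.6, SciPy 1.17.1, pandas 2.3.3, scanpy 1.11.5 (Scrublet) and matplotlib 3.10.9 were used. Alternatives were other cell filters, doublet removal, other Folr2, Gata6 and C1q limits, thinned counts, other scalings, other minimum levels and free RNA subtraction. Leaving out barcodes found in both libraries was added after seeing the data.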

Additional observations from a re-analysis of the deposited data

Results flagged for a closer look

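The screen took 126 genes chosen for naming in the comparison of the libraries, less those of the rule and those not reported here. The rest of the 4678 genes compared were not screened. Of the screened genes, 5 had Cd36-/- over fl/fl log2 ratios of opposite sign in Folr2 macrophages and in a group set beside these cells. Their counting intervals lay on either side of 0, with a gap of at least 0.3 between the ratios. With 1 library per group, the difference was not tested. C4b, a complement component, had 0.27 in Folr2 macrophages and -0.11 in Gata6-type macrophages, where its level was 1002 and 1080 CPM against 128 and 106 CPM, and 23.9% of its 3′ words also occur in C4a. Trem2, a lipid-sensing receptor, had -0.23 and 0.11. Against Folr2-negative Gata6-low macrophages, 3 antigen presentation genes differed in sign. Cd74 had 0.32 in Folr2 and -0.12 in Folr2-negative macrophages, H2-Ab1 0.16 and -0.19, and H2-DMb1 0.43 and -0.09. In Gata6-type macrophages the same 3 genes had 0.39, 0.33 and 0.36, on the side of the Folr2 macrophages. The part of free RNA, which carries Cd74 and H2-Ab1 from B cells, was not tested.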

How the results depend on the processing

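For the share and the 2 gene counts, 30 recomputed values stayed within counting error or 1.5 times, and 12 did not. The difference in share ran from -0.187 points with at least 4 Folr2 UMIs to 0.661 points with 1 Folr2 UMI; it was also above 0, within counting error, with a C1q minimum of 40, with thinned limits and without barcodes found in both libraries. Counts of genes at least 1.5-fold higher and lower in Cd36-/- cells were 30 and 59. They were 82 and 151 with at least 4 Folr2 UMIs, 225 and 304 after thinning the cells to 2000 UMIs, 51 and 89 with mitochondrial, ribosomal and Saa3 UMIs left out of the total, 181 and 258 at 5 CPM in 1 library, and 11 and 9 at 50 CPM in both. With the limits applied to cells thinned to 5000 UMIs, 48 genes were higher. Fewer cells or UMIs per gene widen the counting error, and the cause of each move was not tested further. Among recomputed list medians, 365 stayed within 0.1, 29 moved further and 5 reversed. Among single-gene ratios, 1544 stayed within the counting bounds, 98 moved further and 5 reversed. Reversed were Arg1 (0.29) and the fatty acid list (-0.00993) with 4 Folr2 UMIs, that list (-0.00993) at 5 CPM, Pcna (-0.0121) with thinned limits, Abca1 (-0.0260) and Cfp (0.0244) with thinned sums, the cell cycle list (-0.0665) at 50 CPM, and Alox15 (-0.72), the large peritoneal macrophage list (-0.0258) and the chemokine list (-0.00700) with free RNA subtracted. Leaving out barcodes found in both libraries gave counts of 33 and 58. Replicates could not be left out. No paired analysis was possible because each group is 1 library.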
